A study of Rattus norvegicus with 2 samples.

Results

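The cells described here are mesenchyme-like cells of the postnatal rat cochlear duct that carried transcripts of Sfrp4, Dlx5, Gdf10 and Matn4, and they numbered 388 of 25360 cells. The samples were cochlear ducts of Sprague-Dawley rats, pooled into 1 library at postnatal day 1 (P1) and 1 library at postnatal day 7 (P7), with no treatment or genetic change named in the labels. Single cells were captured in droplets with a 3′ kit, and the values are counts of UMIs, unique molecular identifiers that each mark 1 captured transcript. The labels call the cells greater epithelial ridge cells, yet the suspension came from the dissected cochlear duct. By the paper's Methods, spiral ganglions, spiral ligament and stria vascularis were first separated off by microdissection. Age and library coincide, so an effect of age and an effect of library cannot be told apart, and with 1 library per age nothing was tested between them. The 95% intervals were computed exactly and cover counting error only.

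Sfrp4 is a secreted Wnt inhibitor, Gdf10 a secreted ligand of the TGF-beta family, Dlx5 a homeobox factor known for its part in bone and inner ear development, and Matn4 a matrilin, a bridging protein of the extracellular matrix. In the cochlea, mesenchyme around the duct gives rise to the fibrocytes of the spiral ligament and spiral limbus and borders the forming bone of the otic capsule. Otos and Coch encode secreted proteins of such fibrocytes, whereas Alpl, Runx2 and Ibsp are known from bone-forming cells.

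A member had 501 to 4999 genes and under 25% mitochondrial UMIs, no UMI of the dividing-cell genes Top2a or Ube2c, and at least 1 UMI of at least 3 of the 4 genes Sfrp4, Dlx5, Gdf10 and Matn4. It had a UMI of at most 1 of Penk, Col8a1 and B3gat2, under 1% of its UMIs on Otor, and not both 3 UMIs of Gpc3 and 5 of Dcn. At P1 the steps left 12779, 11183, 164, 59, 54 and 47 cells in turn, and at P7 12581, 10918, 1037, 753, 528 and 341. The limits were near many cells: 152 cells at P1 and 491 at P7 met every condition with 2 of the 4 genes, against 41 and 227 members with exactly 3. At P7, 42 members had 0.8% to 1% of UMIs on Otor, and 26 cells fell just outside, between 1% and 1.2%. The members are therefore a range of cells cut by thresholds, and the 4 genes that chose them are given as description.

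Of the 47 members at P1, 31 carried Sfrp4, Gdf10 and Matn4 without Dlx5, and 6 carried all 4 genes. At P7, 114 of 341 members carried all 4, 90 lacked Sfrp4, 69 lacked Gdf10 and 64 lacked Dlx5. Dlx5 thus had a UMI in 34.0% of members at P1 and 81.2% at P7, against 0.785% and 7.88% of the other cells. Sfrp4 had one in 87.2% and 73.6%, Gdf10 in 93.6% and 79.8%, and Matn4 in 97.9% and 98.8%. Matn4 was frequent outside the members too, with a UMI in 45.5% of the other cells at P1 and 56.6% at P7.

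The label was checked on Col9a1 and Otos, which the rule did not use. Col9a1, a collagen of cartilage and of the spiral ligament, had a UMI in 47 of 47 members at P1 and in 338 of 341 at P7. It also had one in 68.1% of other cells at P1 and 81.1% at P7. Otos had a UMI in 1 of 47 members at P1 (2.13%, against 3.59% of other cells) and in 57 of 341 at P7 (16.7%, against 12.7%). At P7 the highest cell held 196 of the members' 489 Otos UMIs. Otos therefore went against the label at P1 and marked a minority at P7. Col9a1 was close to universal in members at either age but frequent in other cells too, so it is weak support for the label. Epithelial markers summed to 13.0 CPM (UMIs of a group scaled to the same total in every group) in members at P1 and 35.5 at P7, against 61.5 and 77.9 in other cells, so the labelled epithelial cell type was not what these cells carried. Of the mesenchyme list, 4 of 9 measured genes were at least 2-fold above other cells and none below at P1, and 1 of 9 above and 1 below at P7, where the list summed to 3935 CPM in members and 7000 in other cells. The list thus did not set the members apart from other cells at P7.

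Members made up 0.368% of cells at P1 (47 of 12779, 0.270 to 0.489%) and 2.71% at P7 (341 of 12581, 2.43 to 3.01%). The share was 7.37-fold higher at P7 (5.42 to 10.2), a log2 ratio of 2.88 (2.44 to 3.35). It is a share of cells that met the rule, and the 4 chosen genes were also more frequent in other cells at P7. Dlx5 had a UMI in 0.785% of other cells at P1 and 7.88% at P7, and Sfrp4 in 4.59% and 17.0%. The limit on Penk, Col8a1 and B3gat2 left 59 of 164 cells at P1 and 753 of 1037 at P7. The part of these differences in the share was not tested. Depth was similar, with a median of 7215 UMIs per member at P1 (1383 to 23160) and 7355 at P7 (888 to 22022), and medians of 6563 and 6856.5 in other cells. The share was also counted among cells with a UMI each of Col1a1, Col1a2 and Col3a1 and none of 5 epithelial, glial, endothelial or macrophage markers. It then rested on 3 of 73 cells at P1 and 5 of 54 at P7, and the log2 ratio was 1.17 with an interval that spans no difference (-1.19 to 3.86). Col1a2 was scarce in these counts, with 5 UMIs in 36 of the P1 members and 1 in the other 11, so few cells could meet this condition.

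The libraries held 114285848 UMIs at P1 and 101264868 at P7 in 28569 barcodes. The barcode sequences shared by both libraries numbered 60, and 1 member barcode was also present in the other library, though no sequence was a member in both. Members were not filtered for doublets. Scrublet, a doublet caller, marked 6 members at P1 (12.8%, against 4.41% of all cells) and 23 at P7 (6.74%, against 6.10%). Glial markers summed to 452 CPM in members at P1 and 4040 at P7 (1244 and 4994 in other cells). That list holds S100b, which alone stood at 1421 CPM of the 1582 summed over P7 members outside a sub-cluster of 27 cells rich in glial UMIs. Red blood cell markers summed to 49.3 and 726 CPM, with 71.7% of the P7 UMIs in 1 cell, and macrophage markers to 5.19 and 108 CPM, with 59.6% in 1 cell. Neuronal markers summed to 299 CPM at P1, with 84.3% in 1 cell, and 21.1 at P7. The part of these transcripts in the results was not tested.

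Several genes of bone and mineral formation were high in the members at either age, led by Alpl, Runx2 and Ibsp. Of 6 measured genes of that list, 4 were at least 2-fold above the other cells at P1 and none was as far below. At P7 it was 6 of 8 above and none below. The background was 5.22% of 5895 genes that far above and 8.04% that far below at P1, and 2.57% of 5964 genes above and 5.4% below at P7, where a gene was counted with at least 20 CPM on the higher side. The list's median log2 ratio was 1.75 at P1 and 1.88 at P7, against -0.04 and 0.01 over all genes counted. Of the genes listed, Sp7, Bglap, Mepe, Ifitm5 and Phospho1 did not reach 20 CPM in members or other cells.

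Alpl, the tissue-nonspecific alkaline phosphatase that frees phosphate for mineral, stood at 262 CPM in members at P1 (101 UMIs, 214 to 319) and 126 at P7 (340 UMIs, 113 to 140), against 8.98 and 20.03 in other cells. The log2 ratio to other cells was 4.87 (4.56 to 5.17) at P1 and 2.65 (2.48 to 2.82) at P7. Runx2, the master factor of osteoblast differentiation, stood at 70.1 CPM (46.2 to 102) and 77.3 (67.2 to 88.5), against 3.57 and 8.97. For both genes the interval of the members lay far above the level of the other cells at either age, while Alpl lay lower at P7 than at P1 and the 2 intervals of Runx2 overlapped. The other cells are a pool, and members were not the cells richest in Alpl at P7. Alpl stood at 306 CPM in a P7 cluster of 190 cells with the endothelial markers Flt1 and Tie1 among its leading genes. A P1 cluster of 166 cells, also with Flt1 and Tie1 among its leading genes, stood at 120 CPM.

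Ibsp encodes bone sialoprotein, a phosphoprotein of mineralising matrix. It stood at 44.2 CPM in members at P1 (17 UMIs, 25.7 to 70.7) and 125 at P7 (337 UMIs, 112 to 139), against 15.2 and 12.9 in other cells. Phex, a peptidase of bone cells that acts in phosphate balance, stood at 5.19 CPM at P1 (2 UMIs) and 66.9 at P7 (181 UMIs), against 1.66 and 12.6. Mgp, matrix Gla protein, an inhibitor of calcification, was the most abundant gene of the list, at 3496 and 1264 CPM against 897 and 581. Dmp1, a matrix phosphoprotein of osteocytes, stood at 82.8 CPM at P7, close to the 68.0 of other cells. Spp1 lay within 2-fold of other cells at P1 and at least 2-fold above them at P7. A list of osteoblast markers that holds Spp1 summed to 774 CPM in members at P1 and 911 at P7, against 567 and 291 in other cells.

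The plot of bone and matrix genes sets these levels beside 3 groups of similar cells, chosen by the same limits with a UMI of at most 1 of the 4 member genes: Penk-Col8a1-B3gat2 cells (580 at P1, 131 at P7), Gpc3-Dcn cells (917 and 1488) and cells with at least 1% of UMIs on Otor (2742 and 1566). Alpl stood at 1.61 to 7.43 CPM in these groups at P1 and 3.24 to 10.7 at P7. Ibsp at P1 was nearer to them, with 22.3 CPM in Penk-Col8a1-B3gat2 cells and 24.3 in Gpc3-Dcn cells, whereas at P7 the 3 groups stood at 2.14 to 6.49 CPM. Dmp1 at P7 was higher in Gpc3-Dcn cells, at 169 CPM, than in members, at 82.8 CPM.

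**Figure D1:**
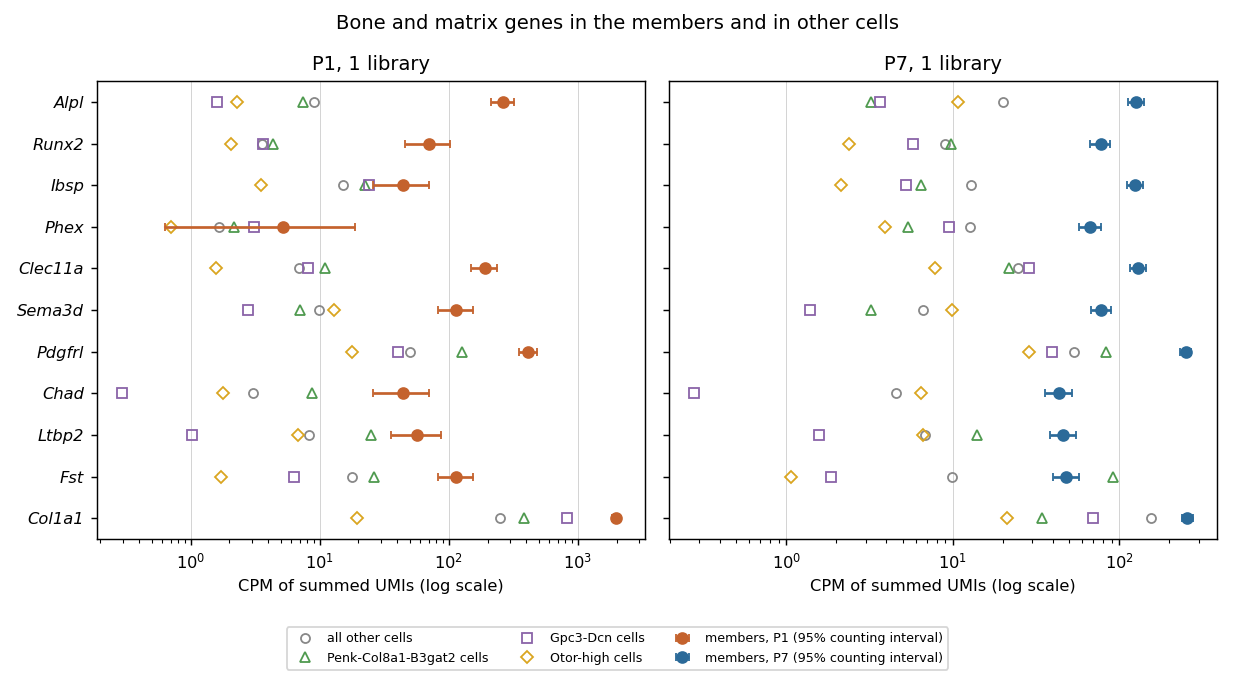
CPM of summed UMIs (log axis) for 11 genes in the P1 library (left) and the P7 library (right); filled circles are members with 95% counting intervals and open symbols the other cell groups, and a group at 0, as Chad in Penk-Col8a1-B3gat2 cells at P7, has no symbol. Alpl, Runx2 and Clec11a of the members lie to the right of every other group drawn here at either age, Phex at P1 rests on 2 UMIs, and Fst at P7 is higher in Penk-Col8a1-B3gat2 cells (91.9 CPM) than in members (48.1 CPM).

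Detection depends on depth and was therefore compared with each cell thinned to 4000 UMIs, which left out 5 members at P1 and 19 at P7. Alpl was then detected in 26.2% of 42 members at P1 (13.9 to 42.0%) and 23.6% of 322 at P7 (19.1 to 28.6%). Unthinned, it had a UMI in 11 of 47 and 107 of 341. In glia-marked cells 5.97% and 6.11% had a UMI of Alpl after thinning, in macrophage-marked cells 0.690% at P7, and in the 3 similar groups 0.576 to 2.01% and 0.875 to 3.28%. The share in glia-marked cells lay above that of the similar groups, so it is not taken as a background of detection. Runx2 was detected in 26.2% and 23.3% of thinned members, against 0.835% and 0.900% of glia-marked cells. Ibsp was detected in 11.9% at P1 (3.98 to 25.6%), a range that holds the 8.41% of Gpc3-Dcn cells, and in 16.8% at P7 (12.9 to 21.3%), against at most 1.46% in the similar groups. Each of these 3 genes was thus undetected in most members at this depth.

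The number of the 4 chosen genes in a cell is part of the rule, so levels by that number are a description of the limits. At P7 Alpl stood at 30.4 CPM in cells with 2 of them, just outside the rule, at 90.0 in members with 3 and at 188 in members with all 4, and Ibsp at 8.68, 58.4 and 239 CPM. At P1 Alpl stood at 27.4, 94.4 and 1057 CPM, the last over 6 cells, and Ibsp at 40.3, 47.2 and 29.8 CPM.

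Because Dlx5 is a homeobox factor and Ibsp a bone gene whose level in members was higher at P7, the sequence before the Ibsp start is shown. A window of 250 bases before the start was given for 13 of 22 genes of the bone list and the 4 chosen genes, from RefSeq on rat build GRCr8, a different build from the rn6 of the counts. The homeodomain core TAATTG was searched on both strands, and its reverse complement CAATTA occurs in the Ibsp window at chr14:5757243-5757492 (minus strand, GRCr8), from base 208 to base 203 before the start, in capitals.
Ibsp: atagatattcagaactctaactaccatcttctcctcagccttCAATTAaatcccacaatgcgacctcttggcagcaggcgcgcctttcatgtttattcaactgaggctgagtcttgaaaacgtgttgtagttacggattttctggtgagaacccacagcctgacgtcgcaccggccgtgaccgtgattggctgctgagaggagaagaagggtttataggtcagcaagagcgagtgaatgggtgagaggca
Of the 13 genes, 2 held the core, Ibsp and Bglap, and 2446 of 33469 windows of the table (7.31%) held it. The match is a description of letters and no evidence of binding.

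Over all genes, at P1 308 genes were at least 2-fold above other cells, 288 of them with an interval above no difference, and at P7 153, all with such an interval. The genes above at both ages numbered 85, which is 27.6% of the P1 list and 55.6% of the P7 list. Apart from the chosen genes, the highest ratios shared by both ages included Clec11a, a growth factor for bone and blood stem cells, Sema3d, a secreted guidance cue, Pdgfrl, Chad, the matrix protein chondroadherin, Alpl and Runx2. Clec11a stood at 190 CPM at P1 and 129 at P7 (6.92 and 24.7 in other cells), and Sema3d at 114 and 77.7 (9.87 and 6.67). Chad stood at 44.2 and 43.3 (3.02 and 4.57). Among the top 15 of 1 age only were Pla2g2a, Acan, Lcp2 and Itga11 at P1 and Adcyap1, Fmo1, Spock3 and Ltbp2 at P7. Of Pla2g2a UMIs at P1, 62.5% lay in 1 cell.

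Interstitial collagens were high in members at P1, with 7 of 9 measured genes at least 2-fold above other cells and none below (median log2 ratio 1.12). At P7 it was 2 of 8, with a median of 0.38. Col1a1, the main chain of collagen I, stood at 1989 CPM at P1 and 256 at P7, against 249 and 154 in other cells. Col14a1 (442 and 237 CPM) and Col16a1 (296 and 336 CPM) were the 2 genes above other cells at P7. Small leucine-rich proteoglycans, which bind collagen fibrils, were above in 6 of 8 genes at P1 and 4 of 8 at P7, led by Ogn (1517 and 887 CPM against 535 and 419) and Bgn (719 and 712 against 282 and 318). The Gpc3-Dcn cells were as rich in this class, with proteoglycans that summed to 4259 CPM at P1 and 7899 at P7, against 4026 and 2867 in members. This class holds Dcn, which chose the Gpc3-Dcn cells and was limited in members, so the gap between these sums is partly set by the rules. At P7 their interstitial collagens summed to 5575 CPM, against 2180 in members. Basement membrane genes went the other way, with none of 11 above and 5 of 11 below at each age. Col18a1, for example, stood at 18.2 and 23.3 CPM against 80.1 and 90.7.

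Cartilage-type collagens were abundant without setting the members far apart. Of 6 genes of collagens II, IX and XI, none was 2-fold above other cells at P1 and 2 were at P7, Col9a3 (276 against 131 CPM) and Col11a1 (921 against 421 CPM). Of the chondrocyte list, 2 of 10 were above and 1 below at P1, and 4 of 11 above and none below at P7. Sox9, the factor of cartilage fate, stood at 119 and 260 CPM, against 72.0 and 178.

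Secreted inhibitors of Wnt signals lay on either side of other cells. Of their list, in which 1 of the genes above is the chosen gene Sfrp4, 3 of 8 were above other cells and 1 below at P1, and 3 of 9 above and 3 below at P7. Wif1, which binds Wnt proteins, stood at 28.6 CPM in members at P1 and 203 at P7, against 47.5 and 60.1. Sfrp1 stood at 177 and 53.3 CPM, against 233 and 164, and so lay below other cells at P7. Genes known as Wnt targets were 0 above and 4 below of 7 at P1, and 0 above and 1 below of 6 at P7. Axin2, a target that feeds back on the pathway, stood at 23.4 and 21.5 CPM, against 46.2 and 30.9.

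Of BMP antagonists, 3 of 6 were above at P1 and 3 of 7 at P7, with 1 below at P7. Fst, follistatin, stood at 114 CPM at P1 and 48.1 at P7, against 17.8 and 9.91, and Bmper at 41.6 and 31.8, against 6.83 and 6.88. Sostdc1 changed sides, at 70.1 and 81.0 CPM in members against 29.7 and 186 in other cells. Rspo3, which enhances Wnt signals, stood at 41.6 and 42.5 CPM, against 7.21 and 17.4. In the TGF-beta list, 5 of 10 genes were above at P1 and 2 of 10 at P7, among them Ltbp2 (57.1 and 46.2 CPM against 8.33 and 6.85). Igf2, a fetal growth factor, stood at 371 and 509 CPM, against 74.1 and 161, and its clearance receptor Igf2r at 88.3 and 95.4, against 27.7 and 35.5.

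Transcription factors of the cranial and periotic mesenchyme were mostly at the level of other cells, with 6 of 23 above and 2 below at P1 and 4 of 21 above and 2 below at P7. The 4 above at P7, all of them above at P1 too, were Twist1 (400 and 365 CPM against 139 and 175), Foxc2 (77.9 and 74.7 against 16.9 and 23.5), Foxd1 (294 and 233 against 95.7 and 99.8) and Foxp2 (197 and 158 against 72.0 and 60.9). Nr2f2 lay below, at 49.3 and 35.9 CPM against 132 and 91.3. Of the other Dlx and Msx genes measured, none reached 20 CPM.

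Genes of the fibrocyte list were mostly not raised, with 1 of 16 above and 7 below at P1 and 3 of 18 above and 5 below at P7. The gene above at both ages was Aqp1, a water channel, at 117 and 144 CPM against 26.5 and 61.0. The 7 below at P1 included Otos and Coch, and Otor was limited by the rule. Isyna1, an enzyme of inositol synthesis, stood at 39.0 and 35.5 CPM against 265 and 81.1, and the potassium channel gene Kcnk2 at 2.60 and 7.03 against 39.7 and 40.8. Against the similar groups, the widest gaps below included Apod, Ramp3 and Clec3b against Gpc3-Dcn cells, with Apod at 174 and 669 CPM in members and 2072 and 8507 in those cells. Against Otor-high cells they included Dpp4, at 0 UMIs and 4.07 CPM in members and 57.7 and 106 CPM there. Of the genes the study discusses, 4 of 40 were above and 12 below at P1, and 1 above and 13 below at P7.

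Between the libraries, 893 of 6139 genes (14.5%) were at least 2-fold higher in P7 members and 481 (7.84%) at least 2-fold lower, 713 and 424 of them with an interval clear of no change. The median log2 ratio of P7 to P1 over all 6139 genes was 0.13 in members and 0.11 in other cells. Coch, which encodes cochlin, stood at 5.19 CPM in members at P1 (2 UMIs) and 250 at P7 (677 UMIs in 141 cells), a log2 ratio of 5.59 (3.73 to 8.64), while in other cells it stood at 77.7 and 54.3. Otos stood at 2.60 CPM (1 UMI) and 181, a log2 ratio of 6.12 (3.64 to 11.4), against 3.17 in other cells. Wif1 had a log2 ratio of 2.83 (1.98 to 3.84), against 0.34, and Ibsp of 1.50 (0.80 to 2.29), against -0.24. Notum, an enzyme that inactivates Wnt proteins, went from 2 UMIs to 204, a log2 ratio of 3.86 (1.99 to 6.92), against 1.02.

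Mbp, which encodes myelin basic protein, was also far higher in P7 members, at 26.0 CPM at P1 and 407 at P7, against 159 and 693 in other cells. Its UMIs lay for 92.7% in 27 of the 341 P7 members, of which Scrublet marked 17. Without these 27 cells, a choice made after the data were seen, the log2 ratio of Mbp was 0.37 (-0.58 to 1.49), while Coch kept 5.67 and Otos 5.70. The Otos value still leans on 1 cell, which lies outside the 27 and held 196 of the 489 Otos UMIs of P7 members. Haemoglobin transcripts were higher at P7 as well, and 1 cell held 68.1% of the Hba-a2 UMIs and 71.3% of those of LOC689064. In other cells LOC689064 was higher at P7 too, at 228 and 834 CPM. Other genes of the top 15 upward were Cpz, a carboxypeptidase that binds Wnt proteins (5.19 and 135 CPM), Dmp1 (2.60 and 82.8), Cd9 (67.5 and 642) and Steap3 (0 UMIs and 68.4 CPM). These genes were higher at P7 in other cells too. There Cpz stood at 12.5 and 78.7 CPM, Dmp1 at 6.32 and 68.0, Cd9 at 119 and 646, and Steap3 at 4.92 and 26.9.

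Genes lower at P7 were led by fibrous matrix. Col1a1 had a log2 ratio of -2.96 (-3.11 to -2.81), against -0.69 in other cells, and Lox, which crosslinks collagen and elastin, of -2.56 (-2.93 to -2.18), against -0.37. Of the P1 Col1a1 UMIs, 67.6% lay in 11 cells. The other 36 P1 members stood at 915 CPM of Col1a1, still above the 256 of P7 members. Eln, elastin, stood at 270 CPM at P1 and 64.0 at P7. Of 9 measured interstitial collagens 6 were at least 2-fold lower and none higher, with a median log2 ratio of -1.45, against -0.55 in other cells. Lum, the proteoglycan lumican, stood at 455 and 135 CPM while other cells stood at 85.4 and 148, but 84.0% of its P1 UMIs lay in 11 cells, and the other 36 P1 members stood at 103 CPM. Col12a1 stood at 226 and 85.1 CPM while other cells stood at 40.1 and 63.1. Mgp had a log2 ratio of -1.47 (-1.56 to -1.37) and Ccn2 of -1.90 (-2.16 to -1.65), but with all 4 chosen genes required, which left 6 P1 cells, these turned to 1.33 and 2.03.

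**Figure D2:**
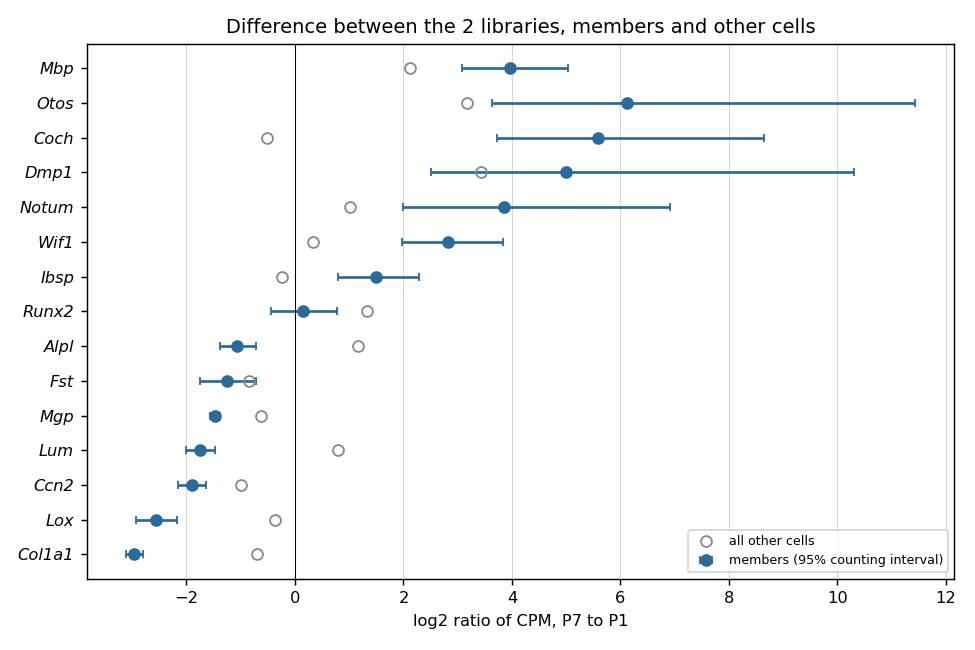
The log2 ratio of CPM between the P7 and the P1 library for 15 genes, in members (filled, with 95% counting intervals) and in all other cells (open). Coch and Lum lie on opposite sides of 0 in members and other cells, Runx2 spans 0 in members, and the interval of Mbp does not show that 92.7% of its P7 UMIs came from 27 cells.

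Immediate early genes were also lower at P7, in 6 of 11 genes, but by a median log2 ratio of -1.03 in members and -0.98 in other cells. Fos stood at 1036 and 283 CPM in members and 1141 and 347 in other cells. Among bone genes, 3 of 8 were higher and 2 lower at P7, and the log2 ratio of Runx2 was 0.14 (-0.44 to 0.78) and that of Alpl -1.06 (-1.38 to -0.73), against 1.33 and 1.16 in other cells.

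Within each library the members did not form 1 cluster. All cells of a library were clustered without the genes of the rule and label. At P1, 28 of 47 members (59.6%) fell in cluster 4 of 22, which held 1396 cells and was led by Ibsp, Gdf10 and Prss35, so members were 2.01% of it. The tendon gene Tnmd and Chad led cluster 21, which held 8 members. At P7, 136 of 341 (39.9%) fell in cluster 12 of 18, led by Spp1, Phex and Sfrp4, 123 (36.1%) in cluster 1, 37 (10.9%) in cluster 2 and 19 (5.57%) in cluster 10, which was led by Gata2, Prdm16 and Lmo4.

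**Figure D3:**
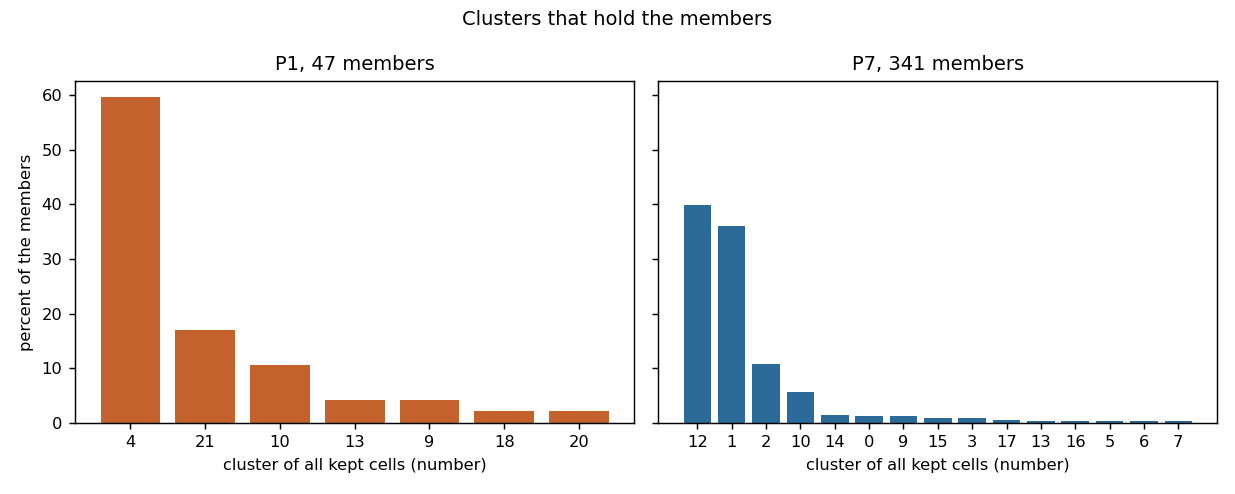
Percent of members (vertical axis) in each cluster of all kept cells of the P1 library (left) and the P7 library (right), for clusters with at least 1 member. At P1 1 cluster holds 59.6% of members, whereas at P7 clusters 12 and 1 hold 39.9% and 36.1%.

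Inside the cluster that held most members, some genes still set them apart and others did not. At P1 Alpl stood at 401 CPM in the 28 members of cluster 4 and 18.3 in its 1368 other cells, but Ibsp at 66.9 and 95.3. At P7 Alpl stood at 74.0 CPM in the 136 members of cluster 12 and 15.9 in its 1058 other cells, and Ibsp at 121 and 71.8. At P1 Ibsp was thus at least as high in the surrounding cells of the cluster, whereas Alpl was higher in members at either age. In cluster 12 at P7, Phex stood at 100 CPM in members and 59.3 in the other cells, and Clec11a at 142 and 93.1. Runx2 stood at 75.1 and 34.3 CPM and Sema3d at 55.8 and 11.9. The 205 P7 members outside cluster 12 had 47.7 CPM of Phex, less than its cells that were not members.

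Clustered on their own, the members fell into 2 sub-clusters at P1 and 5 at P7, which are described by their genes with no test, since the same genes made them. At P1 all 101 Alpl UMIs lay in a sub-cluster of 11 cells (P1-s1), in each of its cells, at 885 CPM (721 to 1076), and none in the other 36 (P1-s0). The highest of these cells held 23.8% of the Alpl UMIs. P1-s1 also had 4540 CPM of Col1a1, 1288 of Lum, 456 of Clec11a and 105 of Acan, and P1-s0 915, 103, 77.5 and 3.69. P1-s0 had more Col9a1 (4569 against 666 CPM), Igfbp2 (1417 against 78.9) and Fst (159 against 8.76, and 97.7% of the Fst UMIs). Runx2 was shared, at 123 CPM in P1-s1 and 48.0 in P1-s0, and Ibsp stood at 35.1 and 48.0. The Alpl level of P1 members was thus that of 11 cells, 1 of which also held most of the neuronal marker UMIs.

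At P7 several bone genes were highest in 1 sub-cluster of 70 cells (P7-s2), 20.5% of the members, which held 48.5% of Alpl, 58.5% of Ibsp, 61.4% of Col1a1 and 80.4% of Smpd3 UMIs. Other genes of the bone list were not concentrated there: P7-s2 held 7.59% of Dmp1 UMIs, at 29.9 CPM the lowest of the 5 sub-clusters, 15.8% of Spp1, 22.0% of Enpp1 and 31.3% of Mgp, of which P7-s3 held 41.1%. Alpl stood there at 290 CPM in 42 cells, Ibsp at 347 in 33 and Smpd3, a sphingomyelinase needed for bone mineral, at 137 in 26. Phospho1, a phosphatase of mineralising vesicles that was under 20 CPM over all members, stood at 38.7 CPM in 12 of its cells. Chad, at 137 CPM, and Fmod, at 155, were high in the same 70 cells.

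A sub-cluster of 75 cells (P7-s0) held 53.5% of the Coch UMIs, at 680 CPM in 42 cells, with 496 CPM of Wif1, 2974 of Ccn3 and 5.64 of Col1a1. Its leading genes, however, were haemoglobin transcripts, with Hba-a2 at 2412 CPM against 183 in the other P7 members. Red blood cell markers stood at a median of 150 CPM per cell there and at 144917 in the highest cell. Coch was found in 40 of the 70 cells of P7-s2 as well, at 208 CPM. Otos stood at 492 CPM in P7-s0, where 1 cell held 196 of 262 UMIs, at 516 in P7-s4 and at 14.1 in P7-s2. The 80 cells of P7-s1 had the most Col9a1 (8566 CPM) and Igfbp2 (3673) and little Alpl (16.0). The 89 cells of P7-s3 had 322 CPM of Cnmd, a cartilage-derived inhibitor of vessels, 1746 of Col3a1 and 607 of Spp1. The 27 cells of P7-s4 had 3114 CPM of Mbp in 23 of 27 cells and a median of 11816 UMIs, and their glial markers summed to 21870 CPM.

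**Figure D4:**
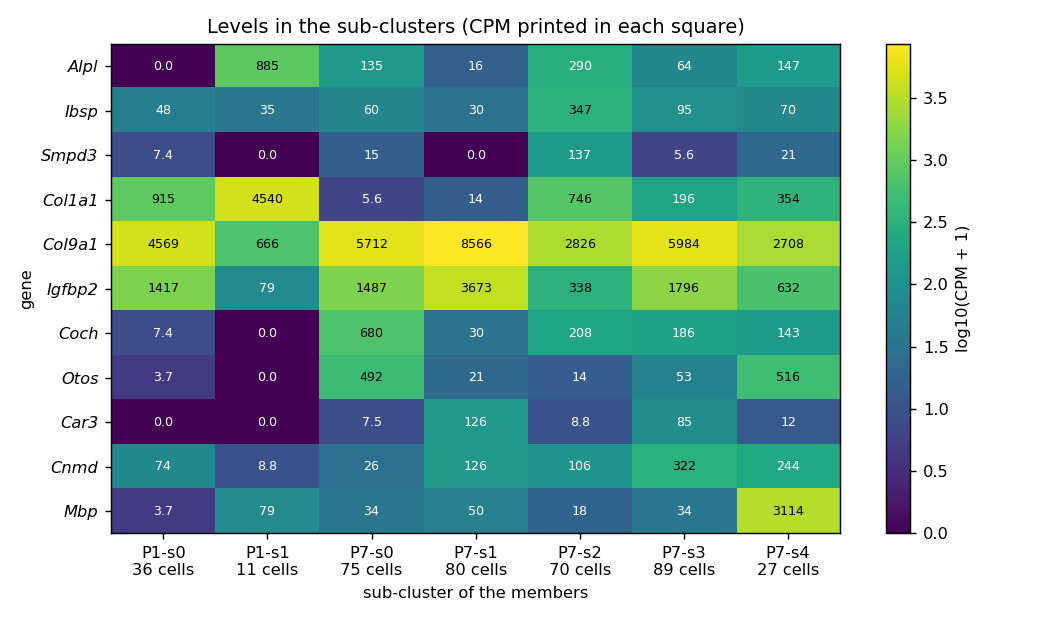
CPM of 11 genes (rows) in the 2 sub-clusters of P1 members and the 5 of P7 members (columns, with cell numbers), coloured by log10 of CPM plus 1. Alpl is at 0 in P1-s0 and at 885 in P1-s1, Ibsp and Smpd3 peak in P7-s2, Coch peaks in P7-s0, and Mbp stands at 3114 in P7-s4.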

How the data were processed

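Cochlear duct cells of 1 library at P1 and 1 at P7 were analysed. The authors deposited UMI counts per gene and barcode without normalization, made with Cell Ranger (3.1.0 in the file headers), and the Methods name the rat genome rn6. Barcodes were kept and members chosen by the limits given above. UMIs were summed over the cells of a group and scaled to a common total (CPM), and a gene was counted as higher or lower at 20 CPM in the higher group and a 2-fold ratio, without a pseudocount. A count of 0 was set to 3 counts in a ratio. Depth per library, 114285848 and 101264868 UMIs, limits the precision for genes of few UMIs, mostly in the 47 P1 members. Intervals were Poisson, Clopper-Pearson or conditional binomial. Clusters were made with Leiden in scanpy 1.11.5 on 2000 variable genes, 10 principal components and 20 neighbours at resolution 0.8, and within members on 15 neighbours at 0.5. Doublets were called with Scrublet and removed only as an alternative. Python 3.11.15, numpy 2.4.6, scipy 1.17.1 and pandas 2.3.3 were used, and the steps were tested on simulated data. Genes were named by rank of the interval's bound nearest to no difference, 15 per direction (10 against the similar groups), or from lists by level. The members and lists were chosen with earlier results of these data known. Alternatives changed the limits on cells, depth, filters, scaling and resolution. Genes named in the sub-clusters were chosen after their values were seen. Some genes that meet the naming rule are not reported here.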

Additional observations from a re-analysis of the deposited data

Results flagged for a closer look

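For 5 of the listed or named genes the whole counting interval of the P7 to P1 ratio in members lay past 2-fold while other cells went the opposite way, and these differences between members and other cells were not tested. Alpl (-1.06 in members and 1.16 in other cells on the log2 scale) and Ibsp (1.50 and -0.24) also went opposite ways, with intervals that reach within 2-fold. Coch stood higher in P7 members by a log2 ratio of 5.59 (2 and 677 UMIs) and -0.52 in other cells. Lum had -1.75 in members (455 and 135 CPM) and 0.80 in other cells, and 84.0% of its P1 UMIs lay in 11 cells, with 103 CPM in the other 36 P1 members. Col12a1 had -1.41 in members (226 and 85.1 CPM) and 0.66 in other cells. The complement genes C1qa and C1qc, markers of macrophages, were at 0 UMIs in P1 members and 64 and 58 at P7, so their log2 ratios of at least 1.60 and at least 1.46 rest on a floor of 3 counts, against -0.71 and -0.66 in other cells. In the P7 members 1 cell held 67.2% of the C1qa and 63.8% of the C1qc UMIs.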

How the results depend on the processing

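No paired analysis was possible because each age had 1 library. The single-gene ratios compared were those that ranked highest, so few could be expected to reverse. Those of the chosen genes Dlx5, Sfrp4 and Gdf10 to other cells had their direction set by the rule. Over these 60 ratios and 12 alternatives, 717 of 720 values kept their direction, and 552 stayed within the counting interval. The 3 that reversed did so when all 4 chosen genes were required, which left 6 P1 cells: the log2 ratio of P7 to P1 was then 2.03 for Ccn2, 1.33 for Mgp and -0.51 for Otos. That setting also gave 1163 genes lower at P7 (481 as reported), 1024 genes above other cells at P1 (308), shares of 0.0470% at P1 and 0.906% at P7, and a log2 share ratio of 4.27. Without a filter on low values, 1638 genes were higher and 5369 lower at P7, and 10156 at P1 and 6673 at P7 were above other cells; at 50 CPM these were 323, 201, 155 and 86. Scaling without ribosomal, mitochondrial and haemoglobin genes gave 732 genes lower at P7. The P7 share was 3.29% with under 10% mitochondrial UMIs, and 1.73% and 3.61% with Otor limits of 0.5% and 2%. The log2 share ratio was 2.43 with Otor below 0.5% and 1.17 among the few cells with a UMI each of Col1a1, Col1a2 and Col3a1. The largest cluster held 85.1% of P1 members at a resolution of 0.4 and 38.3% at 1.2, and 86.5% and 46.6% of P7 members, and P1 members fell into 5 sub-clusters at 1.0. Without the myelin-rich sub-cluster, chosen after the data were seen, 891 genes were higher and 488 lower at P7. The cause of these shifts was not tested.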

Other observations

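Receptors and other signals outside the classes above also differed from other cells, by values only. Pth1r, the receptor of parathyroid hormone, stood at 85.7 CPM in members at P1 and 95.8 at P7, against 29.7 and 43.5 in other cells. Fgfr2 stood at 80.5 and 128 CPM, against 30.3 and 61.1, while Dusp6, which is induced by FGF signals, stood at 33.8 and 53.6, against 73.8 and 143. Fgf18, an FGF known from bone and cartilage, stood at 20.8 CPM at P1 on 8 UMIs and 11.8 at P7, against 6.01 and 1.61. Thbs2, a matricellular protein, stood at 171 and 93.6 CPM, against 19.4 and 40.7.

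In the retinoic acid list, 4 of 10 genes were at least 2-fold above other cells and 2 below at P1, and 1 of 10 above and 3 below at P7. The receptor gene Rarg was above at both ages, at 51.9 and 63.6 CPM against 20.01 and 26.8, and Aldh1a2, which makes retinoic acid, was below, at 31.2 and 6.66 against 109 and 70.4. Of the Notch list, none was above, with 2 of 4 below at P1 and 3 of 6 at P7. Ednrb, the endothelin receptor B, stood at 39.0 and 101 CPM, against 156 and 249.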
